A study of Mus musculus with 11 samples.

Results

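Genes of the B cell receptor and its relatives were read in RNA of T cells sorted from the lacrimal gland and spleen of NOD mice. The genes were Ms4a1, Cd22, Cd79a, Cd79b, Blnk, Bank1, Pax5 and Fcrla, taken by name, and every probe set mapped to these 8 symbols in the deposited value table was used. That gave 12 probe sets of 45037 that are not controls: 3 for Fcrla, 2 each for Ms4a1 and Cd22, and 1 for each of the other genes. NOD mice are inbred, develop autoimmunity that reaches the lacrimal gland, and serve as a model of Sjögren's syndrome. All 11 arrays came from males of 16 weeks, and the labels give no treatment.

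The CD4 T cells of the gland formed 3 groups of 3 arrays. LG_eTreg and LG_eTconv were the effector regulatory and effector conventional subsets, and LG_naive was the subset without surface PD1 and ICOS. All 3 were sorted as live cells positive for CD4 and TCRβ. For both effector subsets the study's design gives an identical gate, high for PD1 and ICOS and low for CD73 and CD200, so the gate as written does not separate them. The spleens of these mice gave 1 array of total CD8 T cells, Spl_CD8, and 1 of total CD4 T cells, Spl_CD4. The stated sort purity, over 99%, is given for the gland subsets, and the markers named for the sort include none of B cells. Whether replicates were separate mice or pools is not given, so a p-value here reflects the spread among the samples at hand, and that spread may be technical.

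In build GRCm38.p6 of the mouse genome RefSeq places Ms4a1 at chr19:11249679-11266149, Cd22 at chr7:30865404-30880342, Cd79a at chr7:24897497-24901858, Cd79b at chr11:106311341-106314562, Blnk at chr19:40928927-40994221, Bank1 at chr3:136053363-136326141, Pax5 at chr4:44524748-44710694 and Fcrla at chr1:170917594-170932216. The positions of the probe sets within the genes were not analysed here.

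B cells sense antigen through surface immunoglobulin, which signals through the pair of chains encoded by Cd79a and Cd79b. The kinase Syk then acts on the adaptor encoded by Blnk, and Bank1 encodes a second adaptor of the pathway. Cd22 encodes an inhibitory sialic acid binding co-receptor, Ms4a1 encodes CD20, Pax5 encodes the transcription factor that keeps cells in the B lineage, and Fcrla encodes an intracellular relative of Fc receptors found in B cells. T cells do not carry a B cell receptor, while Blnk is also used by dendritic and myeloid cells. In RNA of a sorted population, fewer cells of another type and less RNA per such cell cannot be told apart.

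Promoter sequence was given for 6 of the 8 genes, and 3 windows are shown because their genes stood differently in LG_naive against Spl_CD4: Blnk and Fcrla were nearly as high in LG_naive as in Spl_CD4, and Cd22 was not. Each runs 5′ to 3′ on the gene's strand from 250 bases before to 50 bases after the start site, from RefSeq in build GRCm38.p6, and lies on the minus strand. Blnk is at chr19:40994172-40994471, Fcrla at chr1:170927534-170927833 and Cd22 at chr7:30878979-30879278. The Blnk window spans the 5′ end of the gene position given above. Those of Fcrla and Cd22 lie inside the gene positions given above, so their start sites are internal ones. The outer 5′ ends of these 2 genes were not searched. Capitals mark a match to a searched motif.
Blnk: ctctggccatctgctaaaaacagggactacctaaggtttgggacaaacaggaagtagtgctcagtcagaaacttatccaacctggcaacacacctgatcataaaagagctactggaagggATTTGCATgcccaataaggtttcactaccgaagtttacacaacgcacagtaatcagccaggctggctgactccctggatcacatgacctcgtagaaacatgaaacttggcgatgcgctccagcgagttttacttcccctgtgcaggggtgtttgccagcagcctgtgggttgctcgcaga
Fcrla: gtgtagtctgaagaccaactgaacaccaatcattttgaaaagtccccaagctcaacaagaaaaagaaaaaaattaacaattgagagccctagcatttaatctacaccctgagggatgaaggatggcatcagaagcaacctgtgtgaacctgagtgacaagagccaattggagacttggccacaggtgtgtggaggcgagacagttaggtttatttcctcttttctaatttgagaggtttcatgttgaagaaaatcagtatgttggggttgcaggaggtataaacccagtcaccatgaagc
Cd22: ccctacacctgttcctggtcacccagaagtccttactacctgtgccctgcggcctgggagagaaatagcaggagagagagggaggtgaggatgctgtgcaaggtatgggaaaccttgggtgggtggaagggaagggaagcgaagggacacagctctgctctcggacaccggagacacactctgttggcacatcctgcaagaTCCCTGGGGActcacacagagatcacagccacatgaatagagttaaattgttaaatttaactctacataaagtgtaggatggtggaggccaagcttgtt
The search covered 3 motifs of B lineage factors on both strands: the octamer ATGCAAAT bound by the Oct factors that Pou2f2 and its partner Pou2af1 encode or assist, the palindrome bound by Ebf1, and GAGGAAGT, a core used by Spi1. The capitals in Blnk are the octamer on the other strand, 130 bases before the start, and those in Cd22 are the Ebf1 palindrome, 49 bases before it. Of 32851 promoters given, 1.735% held the octamer, 0.9041% the palindrome and 3.202% the core. The windows of Fcrla, Cd79a, Bank1 and Pax5 held none of the 3 motifs, which says only that these letters are not in those windows.

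All values are log2 signals, and a level below the array's background limit cannot be read as expression. The limit was the highest nonspecific control probe set of the array and ran from 0.945 to 1.70. Above it lay 45.5% to 56.3% of all probe sets per array. Of the 12 B cell probe sets 6, 7 or 8 were above the limit on the arrays of LG_eTreg, 9 on each of LG_eTconv, 10 on each of LG_naive and 11 on both spleen arrays. Cd3e, Cd4 and Cd8a were read first, which can tell CD4 from CD8 samples but not the gland subsets from each other. Cd3e, a chain of the T cell receptor complex, averaged 9.66 in LG_eTreg, 9.59 in LG_eTconv and 9.44 in LG_naive, against 9.56 in Spl_CD8 and 9.45 in Spl_CD4. Cd4 averaged 8.43, 8.97 and 8.43 in LG_eTreg, LG_eTconv and LG_naive, and was 2.47 in Spl_CD8 and 8.49 in Spl_CD4. Cd8a was 9.35 in Spl_CD8 and 4.45 in Spl_CD4, and averaged 5.17 in LG_eTreg, 6.48 in LG_eTconv and 4.92 in LG_naive. Of 5 genes of gate markers, Cd4, Pdcd1, Icos, Nt5e and Cd200, 5 were higher in LG_eTconv than in LG_naive (limma adjusted p under 0.05). In LG_eTreg 4 were higher, and 0 were lower in either subset, where 4.55% and 4.09% of all probe sets were higher. The gene not called in LG_eTreg was Cd4. RNA of Nt5e, the gene of CD73, and of Cd200 was thus higher in both effector subsets than in LG_naive, while the gate as written is low for both proteins. LG_eTreg 3 (6.76) and LG_naive 1 (6.15) were high in the 18S ribosomal RNA control, which was 3.57 to 5.34 elsewhere, and LG_eTconv 1 had a low 5′ actin control. Results were repeated without these 3 arrays. The number of arrays limits the precision.

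**Figure D1:**
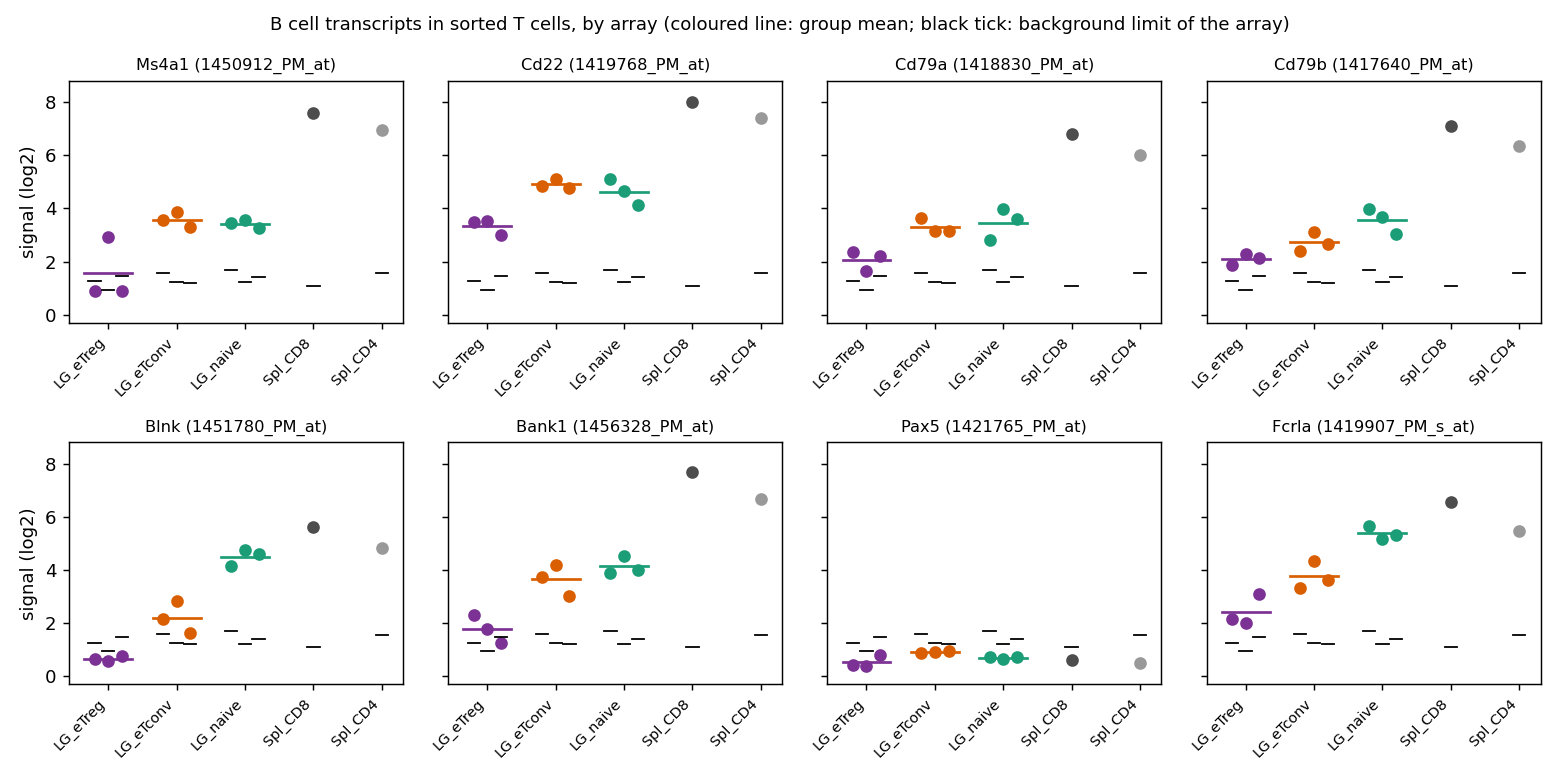
Log2 signal (vertical axis) of each B cell gene on each of the 11 arrays, by group from LG_eTreg at the left to Spl_CD4 at the right, with 1 panel for the probe set of highest mean of each gene. Coloured lines are group means and black ticks the background limit of each array. Apart from Pax5, which lies below the limit throughout, every gene is lowest in LG_eTreg and highest in Spl_CD8.

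Ms4a1, the gene of the B cell surface protein CD20, was far lower in the gland subsets than in spleen T cells. Its brighter probe set (1450912_PM_at) read 0.90, 2.92 and 0.89 in LG_eTreg, 3.56, 3.85 and 3.32 in LG_eTconv, and 3.46, 3.56 and 3.27 in LG_naive, against 7.58 in Spl_CD8 and 6.97 in Spl_CD4. On that probe set 1 of 3 LG_eTreg arrays, LG_eTreg 2, was above its background limit, and all LG_eTreg values lay below those of the other gland groups. The share of all probe sets that separate in this way was not counted. With 3 arrays per group, overlap or its absence here and below only describes the values. The other probe set (1423226_PM_at) read 2.06, 1.19 and 1.75 in LG_eTreg, 2.71, 3.80 and 2.96 in LG_eTconv, and 2.73, 3.42 and 3.76 in LG_naive, against 7.89 in Spl_CD8 and 6.92 in Spl_CD4. Here too the LG_eTreg arrays were the lowest, and LG_eTconv and LG_naive overlapped.

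Cd22, the inhibitory co-receptor, was lowest in LG_eTreg. Its probe set 1419768_PM_at read 3.49, 3.52 and 3.02 in LG_eTreg, 4.86, 5.12 and 4.77 in LG_eTconv, and 5.12, 4.65 and 4.12 in LG_naive, against 8.02 in Spl_CD8 and 7.41 in Spl_CD4. The LG_eTreg values did not overlap with those of either other gland group. A second probe set, 1419769_PM_at, stayed at 0.76 or below on all 9 gland arrays, below their limits, and read 4.08 in Spl_CD8 and 1.74 in Spl_CD4.

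The receptor's signalling chains followed the same order of spleen over gland. Cd79a (1418830_PM_at) read 2.37, 1.65 and 2.20 in LG_eTreg, 3.65, 3.15 and 3.14 in LG_eTconv, and 2.80, 3.97 and 3.60 in LG_naive, against 6.80 in Spl_CD8 and 6.03 in Spl_CD4. Cd79b (1417640_PM_at) read 1.87, 2.30 and 2.12 in LG_eTreg, 2.38, 3.13 and 2.65 in LG_eTconv, and 3.97, 3.66 and 3.05 in LG_naive, with 7.10 in Spl_CD8 and 6.36 in Spl_CD4. For both chains every LG_eTreg array lay below every array of the other gland groups, though neither was called against LG_eTconv (limma adjusted p = 0.0939 for Cd79a and 0.366 for Cd79b). LG_eTconv and LG_naive overlapped for both genes.

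The adaptors behaved unlike each other. Blnk (1451780_PM_at) read 0.64, 0.56 and 0.76 in LG_eTreg, 2.15, 2.81 and 1.60 in LG_eTconv, and 4.16, 4.74 and 4.60 in LG_naive, against 5.61 in Spl_CD8 and 4.83 in Spl_CD4. It was below the limit on all LG_eTreg arrays, in the middle in LG_eTconv and close to the spleen level in LG_naive, with no overlap among the gland groups. Bank1 (1456328_PM_at) read 2.28, 1.77 and 1.23 in LG_eTreg, 3.71, 4.19 and 3.01 in LG_eTconv, and 3.89, 4.52 and 4.01 in LG_naive, against 7.68 in Spl_CD8 and 6.67 in Spl_CD4. LG_eTconv and LG_naive overlapped for Bank1, and LG_eTreg lay below both, with 2 of 3 arrays above the limit.

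Fcrla showed the same order as Blnk on its 2 brighter probe sets, and on the third LG_eTreg and LG_eTconv were both below the limit and have no order. The probe set 1419908_PM_at read 2.10, 1.96 and 2.53 in LG_eTreg, 3.12, 3.66 and 2.85 in LG_eTconv, and 5.95, 5.42 and 5.42 in LG_naive, against 6.84 in Spl_CD8 and 5.59 in Spl_CD4. On 1419907_PM_s_at the values were 2.16, 2.003 and 3.08 in LG_eTreg, 3.31, 4.34 and 3.63 in LG_eTconv, and 5.65, 5.17 and 5.30 in LG_naive, with 6.56 in Spl_CD8 and 5.46 in Spl_CD4. The dimmest, 1425802_PM_a_at, was below the limit on every array of LG_eTreg and LG_eTconv, read 3.78, 3.23 and 3.80 in LG_naive, and 4.70 in Spl_CD8 and 3.46 in Spl_CD4. The 3 groups of the gland did not overlap on the first pair of probe sets, and LG_naive was the highest on all 3. Pax5 (1421765_PM_at) was below the limit on all 11 arrays, between 0.37 and 0.93, so no level or fold can be given for it.

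The comparison of LG_eTreg with LG_naive asks how these transcripts differ between effector regulatory cells and the cells of the gland that lack PD1 and ICOS. Of the 8 genes 7 fell in LG_eTreg, Pax5 being the exception, and 0 probe sets rose. Tests were limma's moderated test over the 9 gland arrays, two-sided, with Benjamini-Hochberg adjustment over all 45037 probe sets, and a probe set was called at an adjusted p under 0.05. Called lower were 9 of the 12 B cell probe sets and called higher 0 of 12, where 3.51% of all probe sets were called lower and 4.09% higher. At an unadjusted p under 0.05 there were 10 lower and 0 higher. Here and below, the share of all probe sets at an unadjusted p under 0.05 was not counted. The shares given are for adjusted p and cannot be set against unadjusted counts. The median difference of the 12 was −1.75, against −0.01 over all probe sets, and −1.47 with every value below the highest background limit set to that limit. With values set to that limit 10 of the 12 were lower in LG_eTreg, and 2, Pax5 and the second Cd22 probe set, were below the limit in both groups. As deposited, 12 of the 12 were lower by sign, as were 51.7% of all probe sets.

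Blnk averaged 0.65 ± 0.10 in LG_eTreg, below the limit, and 4.50 ± 0.30 in LG_naive (SD, n = 3 each, limma adjusted p = 0.000134). Since all LG_eTreg arrays were below background, its fold is a bound, taken against the highest limit of any array: Blnk was at least 6.97-fold lower in LG_eTreg. Fcrla averaged 2.20 ± 0.30 in LG_eTreg and 5.59 ± 0.31 in LG_naive on 1419908_PM_at (difference −3.39, 10.5-fold, adjusted p = 0.00013). On 1419907_PM_s_at it differed by −2.96 (adjusted p = 0.00128), and on 1425802_PM_a_at, below the limit in LG_eTreg, it was at least 3.75-fold lower (adjusted p = 9.8e-05). Bank1 averaged 1.76 ± 0.52 in LG_eTreg against 4.14 ± 0.33 in LG_naive, which is a difference of −2.38 (SE 0.36, limma adjusted p = 0.00497). The calls of Blnk and of the 3 Fcrla probe sets held in every alternative setting that gave them a value, and Bank1 lost its call in 1 of 19, without LG_naive 1, LG_eTconv 1 and LG_eTreg 3 together (adjusted p = 0.0543).

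The receptor chains and surface proteins differed less. Cd79b averaged 2.10 ± 0.22 in LG_eTreg against 3.56 ± 0.46 in LG_naive (−1.46, SE 0.27, adjusted p = 0.0134), Cd22 3.34 ± 0.28 and 4.63 ± 0.50 (−1.29, SE 0.26, 0.0190), and Cd79a 2.07 ± 0.38 and 3.46 ± 0.60 (−1.38, SE 0.32, 0.0362), each limma adjusted p. The probe sets of Ms4a1 disagreed in call: 1423226_PM_at differed by −1.64 (SE 0.37, adjusted p = 0.0331) and 1450912_PM_at by −1.86 (SE 0.50, adjusted p = 0.0642), and the second was called without LG_eTreg 2 (−2.54, adjusted p = 0.00037). Calls for Cd79a and Ms4a1 were the least stable: Cd79a kept its call in 10 of 19 other settings, with adjusted p up to 0.117, and 1423226_PM_at in 9 of 17, with adjusted p up to 0.111. Cd79a lost it without LG_naive 2, LG_naive 3, LG_eTconv 2, LG_eTconv 3 or any LG_eTreg array, and 1423226_PM_at without LG_naive 2, LG_naive 3, LG_eTconv 3, LG_eTreg 2 or LG_eTreg 3, and both lost it with values below background set to the limit (0.097 and 0.0952). Cd22 was not called without LG_eTreg 3 (0.0558) or LG_naive 2 (0.0618), nor with values set to the limit (0.0566), and Cd79b not without LG_eTreg 1 (0.0503) or LG_naive 2. Without LG_naive 1, LG_eTconv 1 and LG_eTreg 3 together, the arrays that stood out in the controls, Cd22 (−0.88, adjusted p = 0.102), Cd79b (−1.27, 0.0804) and Ms4a1 on 1423226_PM_at (0.0607) were not called either. Without LG_naive 2 the number of called B cell probe sets was 5.

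The comparison of LG_eTreg with LG_eTconv sets the effector subsets against each other. Cd22, Blnk and Bank1 were lower in LG_eTreg. They made up 3 of the 12 probe sets called lower, with 0 higher, where 1.71% of all probe sets were called lower and 1.75% higher by limma at an adjusted p under 0.05. At an unadjusted p under 0.05, where the share of all probe sets was not counted, there were 11 lower and 0 higher. Among the 11 were Pax5 and the dimmest Fcrla probe set, which were below the limit in both groups. The median difference was −1.30, against 0.01 over all probe sets, and −1.12 with values set to the limit. With values set to the limit 9 were lower and 3 were below the limit in both groups. As deposited, 12 of the 12 were lower by sign, as were 47.2% of all probe sets. This comparison and the one with LG_naive use the same LG_eTreg arrays, so they are not independent.

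Bank1 averaged 1.76 ± 0.52 in LG_eTreg and 3.64 ± 0.59 in LG_eTconv (difference −1.88, SE 0.36, limma adjusted p = 0.0279). Cd22 averaged 3.34 ± 0.28 in LG_eTreg and 4.92 ± 0.18 in LG_eTconv (−1.57, SE 0.26, adjusted p = 0.0143). Blnk averaged 0.65 ± 0.10 in LG_eTreg, below the limit, and 2.19 ± 0.61 in LG_eTconv (limma adjusted p = 0.0265), at least 1.44-fold lower in LG_eTreg. None of these 3 calls held without LG_naive 1, LG_eTconv 1 and LG_eTreg 3 together (adjusted p = 0.0523 for Cd22, 0.15 for Blnk and 0.197 for Bank1), where the 1 call among the 12 was Fcrla on 1419907_PM_s_at (−1.91, 0.0353). Each of the 3 also depended on single arrays. Cd22 was not called without LG_eTconv 2 (0.0622). Bank1 was not called without LG_eTconv 1, LG_eTconv 2, LG_eTreg 2, LG_eTreg 3 or LG_naive 3 (0.0544 to 0.095), and Blnk not without LG_eTconv 1, LG_naive 3 or any 1 LG_eTreg array (0.052 to 0.0939). With values below background set to the limit the difference of Blnk was −0.52 (adjusted p = 0.797) and that of Bank1 −1.72 (0.0776). Only 1 of the 12 was called without LG_eTconv 1, LG_eTconv 2 or LG_naive 3. Among those not called, the differences of Ms4a1 were −2.003 and −1.49 (adjusted p = 0.082 and 0.0827), that of Cd79a −1.24 (0.0939), that of Cd79b −0.62 (0.366) and those of Fcrla −1.35 and −1.01 on its brighter probe sets (0.0891 and 0.0853). Of these, Ms4a1 on 1450912_PM_at was called without LG_eTreg 2 (−2.68), Cd79a without LG_naive 1 (0.0376) and Fcrla on 1419907_PM_s_at without LG_eTreg 3 (0.0325).

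The comparison of LG_eTconv with LG_naive separated Blnk and Fcrla from the rest. These 2 genes, with 4 of the 12 probe sets, were called lower and 0 of 12 higher, where 4.57% of all probe sets were called lower and 4.55% higher, and 5 lower and 0 higher had an unadjusted p under 0.05. The median of the 12 was −0.33, against −0.02 over all. Blnk averaged 2.19 ± 0.61 in LG_eTconv and 4.50 ± 0.30 in LG_naive (difference −2.31, SE 0.29, limma adjusted p = 0.00159). Fcrla differed by −2.38 on 1419908_PM_at (adjusted p = 0.000682) and by −1.61 on 1419907_PM_s_at (0.0224), and on 1425802_PM_a_at, below the limit in LG_eTconv, it was at least 3.75-fold lower (0.000189). The call on 1419907_PM_s_at was lost without LG_eTconv 1, LG_eTconv 3 or any 1 LG_naive array (0.0513 to 0.0762), without LG_naive 1, LG_eTconv 1 and LG_eTreg 3 together (0.0501) and with values set to the limit (0.0679), while the calls of Blnk and of the other Fcrla probe sets held in each alternative setting that gave them a value.

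For the receptor genes the interval of the difference between LG_eTconv and LG_naive spanned 0 or missed the threshold after adjustment. Cd22 differed by 0.29 (95% confidence interval −0.30 to 0.87, adjusted p = 0.635) and Cd79a by −0.14 (−0.88 to 0.59, adjusted p = 0.879). Bank1 differed by −0.50 (−1.32 to 0.32, adjusted p = 0.524), and Ms4a1 by 0.14 (−0.998 to 1.28) on its brighter probe set and −0.15 on the other. Cd79b differed by −0.84 (−1.46 to −0.22, adjusted p = 0.107) and was called without LG_naive 3 (−1.09, adjusted p = 0.0429). The data are compatible with any difference within these bounds.

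**Figure D2:**
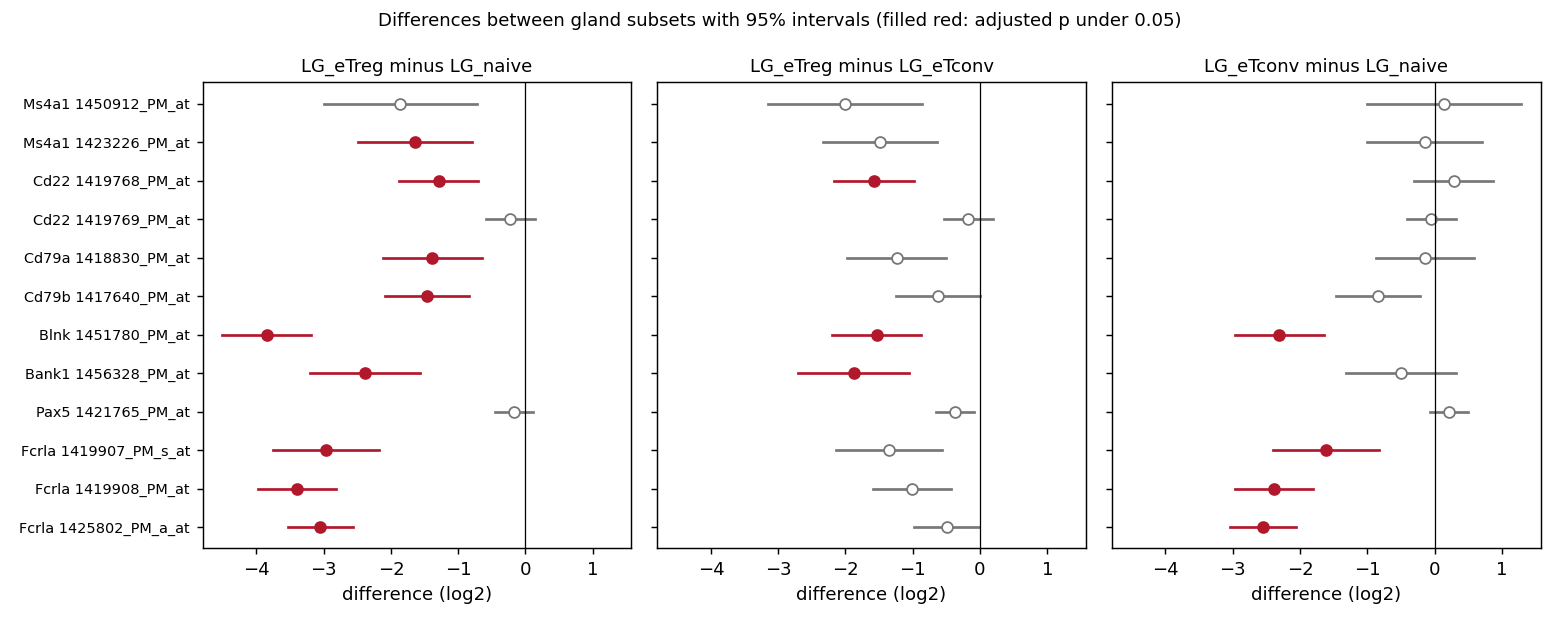
Log2 difference (horizontal axis) with its 95% confidence interval for each of the 12 probe sets, in panels for LG_eTreg minus LG_naive, LG_eTreg minus LG_eTconv and LG_eTconv minus LG_naive, with filled red points for called probe sets. Values below the background limit are plotted as deposited, so that the points of Pax5, the second Cd22 probe set, Blnk in LG_eTreg and the dimmest Fcrla probe set in the effector subsets rest on background. Calls number 9, 3 and 4, and in the last panel they are those of Blnk and Fcrla.

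Between gland and spleen, B cell transcripts were lower in every gland subset, except that Blnk and Fcrla in LG_naive lay near Spl_CD4. With 1 spleen array per type there is no test. A probe set was counted where the group mean differed by at least 1 on the log2 scale, which is 2-fold, with all 3 gland arrays on the same side. Below Spl_CD8 were 11 of the 12 probe sets in LG_eTreg, 11 in LG_eTconv and 11 in LG_naive, Pax5 being left out each time, where 6.81%, 7.54% and 5.77% of all probe sets were that low. Below Spl_CD4 were 11 in LG_eTreg, 11 in LG_eTconv and 7 in LG_naive, where the shares of all probe sets were 5.60%, 6.22% and 4.48%. Each of these 3 counts holds the second Cd22 probe set, which was below the limit on all gland arrays and 1.74 in Spl_CD4, so that its bound is 1.03-fold. With values set to the limit the counts below Spl_CD4 were 10, 10 and 6. The median differences from Spl_CD4 were −4.01 in LG_eTreg, −2.57 in LG_eTconv and −1.89 in LG_naive, and −3.67, −2.55 and −1.43 with values set to the limit.

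The log2 difference of Ms4a1 from Spl_CD4 was −5.39 in LG_eTreg (42.0-fold, on 1450912_PM_at, where 2 of 3 LG_eTreg arrays were below the limit), −3.39 in LG_eTconv and −3.53 in LG_naive. Bank1 differed from Spl_CD4 by −4.91, −3.03 and −2.53 in LG_eTreg, LG_eTconv and LG_naive, and Cd79b by −4.26, −3.64 and −2.80. Cd22 differed by −4.07, −2.49 and −2.78, and Cd79a by −3.96, −2.72 and −2.57. Blnk stood apart: it differed from Spl_CD4 by −2.64 in LG_eTconv and by −0.33 in LG_naive, and was at least 8.77-fold lower in LG_eTreg. Fcrla differed on 1419908_PM_at and 1419907_PM_s_at by −3.39 and −3.05 in LG_eTreg, by −2.38 and −1.70 in LG_eTconv, and by 0.00 and −0.09 in LG_naive. On 1425802_PM_a_at it was at least 3.39-fold lower in LG_eTreg and LG_eTconv, both below the limit, and differed by 0.15 in LG_naive. In LG_naive the 6 probe sets of Ms4a1, Cd22, Cd79a, Cd79b and Bank1 that were above background lay 2.53 to 3.61 below Spl_CD4, while Blnk and Fcrla lay within 0.33 of it.

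The spleen arrays also differed from each other. Apart from Pax5, below the limit on both, all 11 probe sets were higher in Spl_CD8 than in Spl_CD4, by 0.61 to 2.34, where 50.2% of all probe sets were higher by sign. At least 2-fold higher in Spl_CD8 were 5 of the 12, from Cd22 (its second probe set), Bank1 and Fcrla (all 3), where 4.18% of all probe sets passed that fold. No array repeats either spleen sample, so the spread of these differences is not known.

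**Figure D3:**
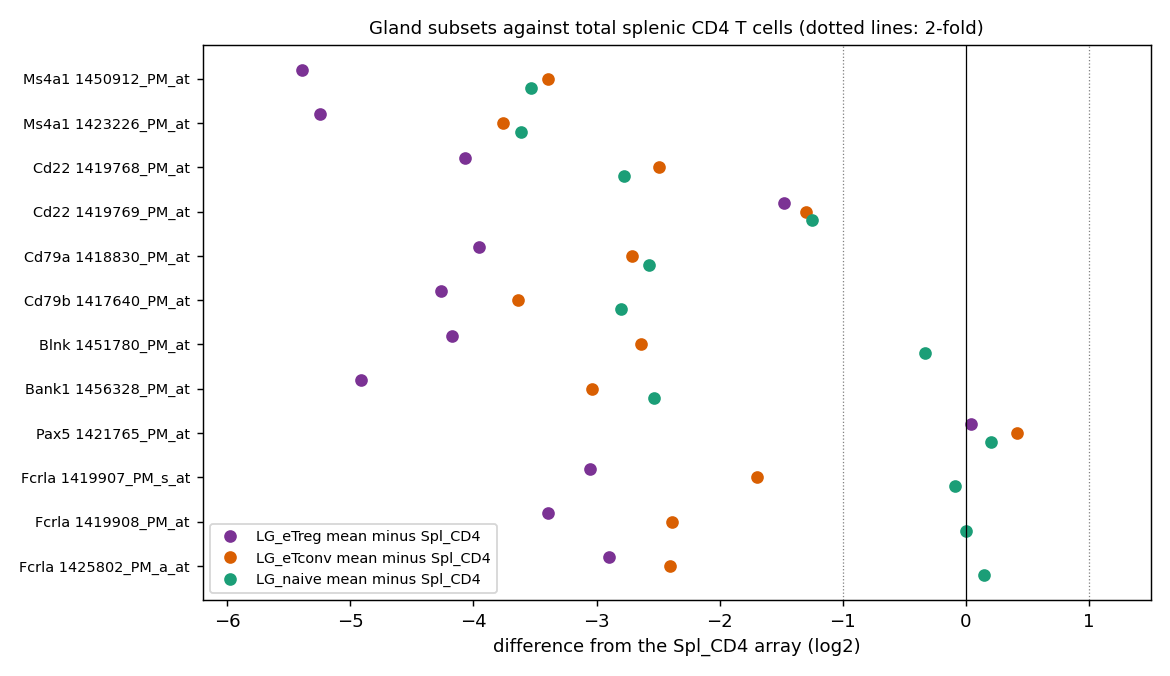
Log2 difference of each gland group's mean from Spl_CD4 (horizontal axis) for each of the 12 probe sets, with dotted lines at 2-fold and a colour for each gland group, with values below the background limit plotted as deposited. In LG_naive the points of Blnk and Fcrla lie within 0.33 of 0, whereas those of Ms4a1, Cd79a, Cd79b, Bank1 and the brighter Cd22 probe set lie at −2.53 or lower.

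Correlations across the 11 arrays are given as a description, since the arrays share groups and are not 11 independent conditions. Blnk correlated with the Fcrla probe sets at Pearson's r of 0.98, 0.97 and 0.95. Over the 9 gland arrays these values were 0.97, 0.95 and 0.93. Cd79a correlated with Ms4a1 (1423226_PM_at) at 0.98, Bank1 at 0.96, Cd22 at 0.93 and Cd79b at 0.92, and with Blnk at 0.80. Over the 9 gland arrays Cd79a correlated with these genes at 0.86, 0.87, 0.67 and 0.53, and with Blnk at 0.76. With the brighter Ms4a1 probe set (1450912_PM_at) Cd79a correlated at 0.91 over the 11 arrays and 0.60 over the 9 gland arrays. Cd79b there correlated at 0.89 with Blnk and 0.92 with Fcrla on 1419908_PM_at, so within the gland it lay closer to those genes than to Cd79a. The probe sets most like each gene were ranked among 13489 with a single symbol, a value above background and a range of at least 1 on the log2 scale. For Ms4a1 the nearest were Trim35 (r = 0.967), Cd22 (0.967), 2 probe sets of B3galnt2 (0.960 and 0.959) and H2-Ob (0.959), which encodes a chain of a molecule regulating peptide loading of MHC class II in B cells. For Cd79a they were Ms4a1 (0.975), 1700008O03Rik (0.964), Mrpl11 (0.963), Bank1 (0.961) and Tubd1 (0.960). For Blnk and Fcrla the same ranking was made after their values were seen. Nearest to Blnk were Tanc1 (0.981), Fcrla (0.980), Haao (0.978), Xkrx (0.972) and Orai2 (0.968), and nearest to Fcrla were Blnk (0.968), Orai2 (0.965), Xkrx (0.964), Slc12a7 (0.962) and Cdkn2d (0.958).

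Other genes of the B cell receptor and its co-receptors moved in both directions in the gland. Of 16 listed, 13 were measured, each by its brightest probe set. In LG_eTreg against LG_naive 3 were lower and 2 higher (3.51% and 4.09% of all probe sets). Lower were Cd180 (−3.48, limma adjusted p = 0.000219), a relative of Toll-like receptors on B cells, its partner Ly86 (−2.55, 9.98e-05) and Siglecg (−2.14, 0.0359), an inhibitory receptor like CD22. Cd180 and Siglecg were above the limit on 1 of 3 LG_eTreg arrays. Higher were Fcrl1 (1.93, 0.00234), an Fc receptor-like protein of B cells, and Cd81 (1.3996, 0.0486), a tetraspanin that B and T cells both carry. In LG_eTconv against LG_naive Cd180 (−2.15) and Ly86 (−2.47) were lower and Fcrl1 higher (2.69), where 4.57% and 4.55% of all probe sets were. Cd180 alone was called between LG_eTreg and LG_eTconv (−1.33, limma adjusted p = 0.0493, kept in 7 of 19 other settings), where 1.71% of all probe sets were lower and 1.75% higher. The calls of Cd180, Ly86 and Fcrl1 against LG_naive held in 19 of 19 other settings, that of Siglecg in 12 and that of Cd81 in 8.

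Cr2 and Fcer2a, the genes of complement receptor CD21 and the IgE receptor CD23 of mature B cells, resembled Ms4a1 in their spleen levels. Cr2 averaged 1.08 in LG_eTreg, 2.03 in LG_eTconv and 2.36 in LG_naive, against 6.55 in Spl_CD8 and 5.08 in Spl_CD4. It was above the limit on 7 of 11 arrays. Fcer2a averaged 2.14, 2.55 and 2.49 in LG_eTreg, LG_eTconv and LG_naive, with 5.63 in Spl_CD8 and 4.72 in Spl_CD4. Neither was called in a gland comparison. Of the 13 genes 11, 10 and 9 were at least 2-fold below Spl_CD8 in LG_eTreg, LG_eTconv and LG_naive, and 8, 8 and 6 below Spl_CD4. Of all probe sets 6.81%, 7.54% and 5.77% were that low against Spl_CD8, and 5.60%, 6.22% and 4.48% against Spl_CD4. With 1 spleen array per type these counts have no test.

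Signalling genes were listed at 13 and measured at 11. Against LG_naive 3 were lower and 1 higher in LG_eTreg, and 3 lower and 0 higher in LG_eTconv. At an unadjusted p under 0.05 the counts were 4 and 3 in LG_eTreg and 6 and 1 in LG_eTconv. For this list and those below, 3.51% of all probe sets were called lower and 4.09% higher in LG_eTreg, and 4.57% and 4.55% in LG_eTconv. The log2 difference of LG_eTreg from LG_naive was −2.61 for Btk, the kinase of the receptor pathway (limma adjusted p = 0.0114), −1.92 for Plcg2, the phospholipase it acts on (0.0144), and −1.80 for Ralgps2 (0.00457). Their calls held in 18, 15 and 19 of 19 other settings. Inpp5d, an inhibitory lipid phosphatase of blood cells, was higher in LG_eTreg by 0.48 (0.0487, kept in 4 of 19). Between LG_eTreg and LG_eTconv 2 were higher and 0 lower (1.75% and 1.71% of all probe sets), with 3 higher and 3 lower at an unadjusted p under 0.05. Pik3ap1, an adaptor for PI3 kinase, was lower in LG_eTconv than in LG_naive (−2.15, limma adjusted p = 0.000936) and higher in LG_eTreg than in LG_eTconv (2.23, 0.00189). Blk, a Src family kinase of B cells, averaged 2.35 in LG_eTreg, 2.39 in LG_eTconv and 2.44 in LG_naive, against 6.40 in Spl_CD8 and 5.56 in Spl_CD4, so it followed the spleen pattern of Ms4a1 with no called difference in the gland.

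Transcription factors of the B lineage, 10 of 11 measured, were lower in LG_eTreg than in LG_naive in 5 cases and higher in 0, with 7 lower and 1 higher at an unadjusted p under 0.05. The log2 difference was −4.41 for Spib (limma adjusted p = 3.37e-05), −4.21 for Bcl11a (0.000144), −3.98 for Bach2 (0.000215) and −2.52 for Mef2c (0.0425, kept in 10 of 19 other settings). Spib and Bcl11a, which plasmacytoid dendritic cells use as well, were also lower in LG_eTconv than in LG_naive (−2.99 and −3.60). Bcl11a was above the limit on 9 of 11 arrays. In LG_eTconv against LG_naive 2 factors were lower and 2 higher, and 7 were lower and 2 higher at an unadjusted p under 0.05. In LG_eTreg against LG_eTconv 4 were lower and 0 higher, where 1.71% and 1.75% of all probe sets were. These counts of factors were the same at an unadjusted p under 0.05. Bach2, a repressor that T cells use too, was lower in LG_eTreg than in LG_eTconv (−3.13, limma adjusted p = 0.00161), as was Pou2af1, the octamer coactivator (−1.49, 0.00029). The factors higher in LG_eTconv than in LG_naive were Pou2af1 (1.01, limma adjusted p = 0.00103) and Pou2f2 (1.42, 0.00055). Pou2f2 was also lower in LG_eTreg than in LG_eTconv (−1.06, 0.00629). Its mean was 2.21 in LG_eTreg, 3.27 in LG_eTconv and 1.85 in LG_naive, against 1.98 in Spl_CD8 and 2.02 in Spl_CD4, unlike the order of the B cell genes. Ebf1, a founding factor of the B lineage, averaged 0.87 in LG_eTreg, 0.78 in LG_eTconv and 1.25 in LG_naive, against 3.75 in Spl_CD8 and 3.98 in Spl_CD4, and was not called in the gland. It was above the limit on 5 of 11 arrays and below it on every LG_eTconv array, so its gland means rest largely on background.

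Immunoglobulin genes gave little to read. Of 15 listed, 4 were measured, and 0 were called in the 3 gland comparisons by limma, with 0 at an unadjusted p under 0.05. Igkc was not analysed here. The probe set of Ighm, the IgM heavy chain, was below the limit on all 11 arrays. Iglv1, a lambda light chain variable gene, read 3.89, 0.91 and 3.08 in LG_eTreg, 2.59, 2.54 and 1.24 in LG_eTconv, and 2.75, 6.84 and 2.81 in LG_naive, against 6.55 in Spl_CD8 and 6.42 in Spl_CD4. LG_naive 2 was as high as the spleen arrays, and the gland groups overlapped. Jchain, the joining chain of secreted antibodies, averaged 6.48 in LG_eTreg, 7.33 in LG_eTconv and 8.07 in LG_naive, against 8.49 in Spl_CD8 and 7.54 in Spl_CD4. It was the gene called lower in LG_eTreg than in LG_naive among 7 measured plasma cell genes (−1.59, limma adjusted p = 0.0216, kept in 12 of 19 other settings), with 0 higher.

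The summed markers of 4 other cell classes were also lower on every array of both effector subsets than on any LG_naive array, and their part in the results was not tested. Between LG_eTreg and LG_eTconv, and between gland and spleen, they did not follow the B cell genes throughout. Summed over 11 of 14 measured markers of plasmacytoid dendritic cells, the log2 levels were 34.4 to 36.5 in LG_eTreg, 33.7 to 35.5 in LG_eTconv and 63.3 to 64.2 in LG_naive, against 51.1 in Spl_CD8 and 47.7 in Spl_CD4. Of those markers 10 were lower in LG_eTreg and 10 in LG_eTconv than in LG_naive, by limma, where 3.51% and 4.57% of all probe sets were lower. Higher were 0 in LG_eTreg and 1 in LG_eTconv, Pacsin1 (1.33, limma adjusted p = 0.0017), where 4.09% and 4.55% of all probe sets were higher. Lair1, an inhibitory receptor, averaged 1.99 in LG_eTreg, 2.02 in LG_eTconv and 7.11 in LG_naive, against 4.87 in Spl_CD8 and 5.54 in Spl_CD4. Siglech and Bst2 were not analysed here. Between LG_eTreg and LG_eTconv, whose summed levels overlapped, 3 of these markers were lower and 1 higher, where 1.71% and 1.75% of all probe sets were.

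The summed levels of 15 monocyte and macrophage markers were 42.7 to 43.6 in LG_eTreg, 38.8 to 42.7 in LG_eTconv and 59.9 to 63.9 in LG_naive, against 50.4 in Spl_CD8 and 52.2 in Spl_CD4, and 7 of the 15 were lower than in LG_naive in each effector subset. In each effector subset 0 of these 15, and 0 of the 8 epithelial markers below, were called higher than in LG_naive. Itgam was below the limit on all arrays. Over 12 markers of dendritic cells and MHC class II the sums were 40.2 to 44.8 in LG_eTreg, 41.1 to 44.3 in LG_eTconv and 54.9 to 60.1 in LG_naive, against 59.2 in Spl_CD8 and 62.1 in Spl_CD4, with 9 lower in LG_eTreg and 8 in LG_eTconv than in LG_naive. Called higher than in LG_naive were 0 of the 12 in LG_eTconv and 1 in LG_eTreg, Zbtb46 (1.27, limma adjusted p = 0.0492, kept in 7 of 19 other settings). Xcr1 was below the limit on all arrays. Over 8 markers of lacrimal gland epithelium the sums were 22.2 to 24.1 in LG_eTreg, 16.4 to 18.3 in LG_eTconv and 27.2 to 33.9 in LG_naive, against 11.5 in Spl_CD8 and 12.7 in Spl_CD4, with 2 lower in LG_eTreg and 3 in LG_eTconv than in LG_naive, and Krt19 and Cldn3 were below the limit on all arrays. The sums of 14 T cell markers were 93.6 to 98.2 in LG_eTreg, 95.4 to 99.0 in LG_eTconv and 91.6 to 94.3 in LG_naive, against 93.7 in Spl_CD8 and 93.6 in Spl_CD4, with Tcra below the limit on all arrays. The mean level of the 8 B cell genes, 1 probe set each, ran from 1.76 to 1.89 in LG_eTreg, 2.88 to 3.44 in LG_eTconv and 3.59 to 3.86 in LG_naive, with 6.24 in Spl_CD8 and 5.53 in Spl_CD4. The summed monocyte, plasmacytoid and epithelial markers were higher in every LG_naive array than in either spleen array, while the B cell genes were lower. The dendritic cell and MHC class II sums in LG_naive (54.9 to 60.1) were not above both spleen arrays (59.2 and 62.1). What these levels mean for the B cell genes was not tested.

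**Figure D4:**
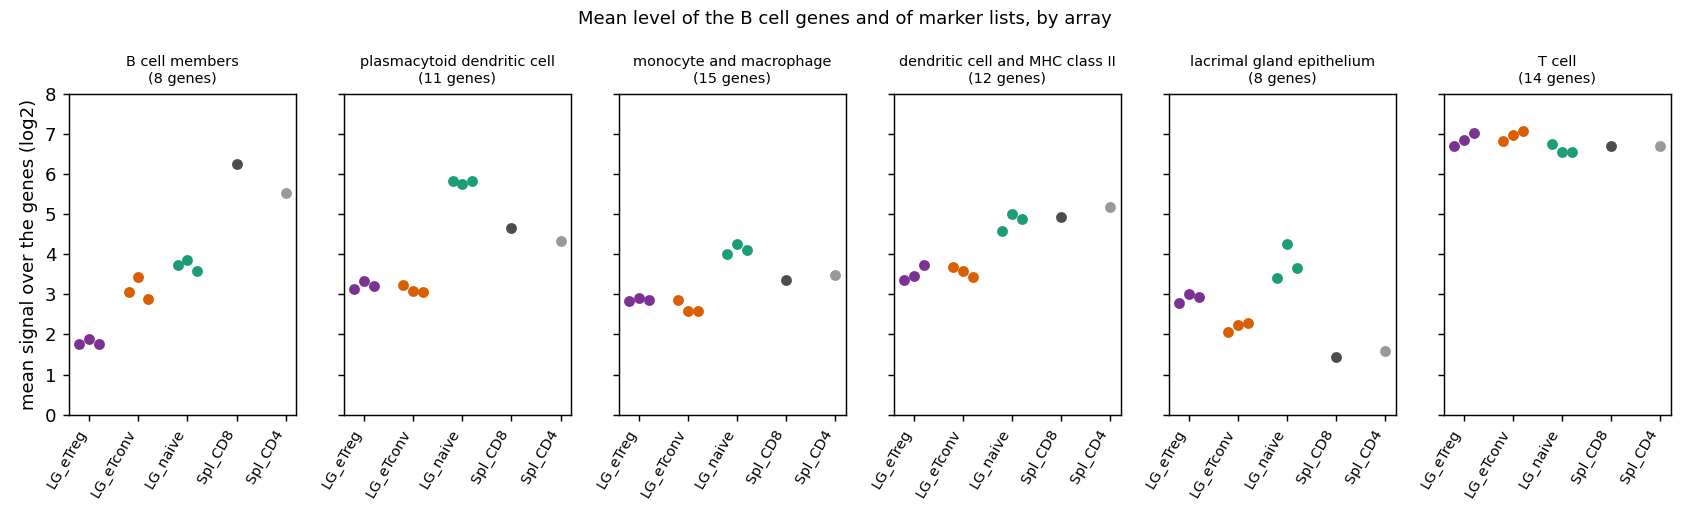
Mean log2 level (vertical axis) of the 8 B cell genes and of 5 marker lists on each of the 11 arrays, by group from LG_eTreg to Spl_CD4. The B cell genes are lowest in LG_eTreg (1.76 to 1.89) and highest in Spl_CD8 (6.24), whereas the plasmacytoid dendritic cell list is highest in LG_naive (5.76 to 5.83).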

How the data were processed

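RNA of 11 samples was hybridised to mouse perfect-match probe set arrays. The deposited values are on a log scale, taken as log2 because the submitters' processing notes name RMA, a method that gives log2 values, and Partek (their roles and versions are not given in the sources used here). RMA as usually run corrects background and equalises the distributions of the arrays, and the deposited arrays shared nearly, but not exactly, 1 distribution, so values are relative to each array's whole signal. Per the labels' protocols, RNA was isolated with RNAqueous and amplified with NuGEN Ovation, and RNA integrity was above 9.1 but for 1 sample that the labels do not tie to a group. Controls, 104 of the 45141 probe sets deposited, were dropped. Symbols came from the platform annotation given, where 28898 probe sets had 1 symbol, 551 several and 15588 none.

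A mean per group was fitted over the 9 gland arrays with limma 3.58.1 in R 4.3.3 (6 residual degrees of freedom, 8.12 with the prior), with empirical Bayes moderation. The B cell genes, marker lists and motifs were chosen with earlier results of these data known. Members are given in every group with all their probe sets, and other list genes by their probe set of highest mean on the 11 arrays, up to 4 of the largest called changes, with some, such as Cr2, Fcer2a, Blk, Ebf1, Iglv1 and Lair1, chosen after their values were seen. Of 137 list entries, 27 had no probe set under their symbol. For a group with no array above its limit, the fold was computed with values below the highest limit of the 11 arrays set to that limit, a floor chosen after seeing the data, and given as at least that size. The script was tested on simulated data. Alternatives were 1 probe set or the mean of the probe sets per gene, a filter on dim probe sets, a floor at the limit, quantile normalization, median centring, eBayes with trend and robust, a replicate block and left-out arrays. Each was run on the lists too, which was chosen after seeing the data.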

Additional observations from a re-analysis of the deposited data

How the results depend on the processing

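Over 654 comparisons of single B cell probe sets with an alternative setting, 576 kept their direction and side of the threshold, 7 had no difference left because both groups were set to the limit, 49 lost the call, 16 gained one and 6 reversed, all 6 in LG_eTconv against LG_naive and none of them called. Reversed were Ms4a1 on 1450912_PM_at with the mean of its probe sets (−0.0028), Ms4a1 on 1423226_PM_at without LG_eTconv 1 or LG_naive 3 (−0.47 to 0.079 over the left-out arrays), Cd22 on 1419769_PM_at without LG_eTconv 2 or LG_naive 3 (−0.17 to 0.088), and Cd79a without LG_naive 2 (−0.47 to 0.11). Over all probe sets 3424 were called in LG_eTreg minus LG_naive, 1557 in LG_eTreg minus LG_eTconv and 4103 in LG_eTconv minus LG_naive. With 1 probe set per gene these counts were 1995, 974 and 2303, and with the mean of the probe sets 2078, 1023 and 2372, since fewer rows were tested. In LG_eTconv minus LG_naive the B cell calls were then 2 under both, and in LG_eTreg minus LG_eTconv 5 with the mean. Without dim probe sets LG_eTreg minus LG_eTconv had 5 B cell calls. With a floor at the background limit it had 1, and 1023 over all probe sets. Without LG_naive 1, LG_eTconv 1 and LG_eTreg 3 together it had 1, none of the 3 reported, with 913 over all, and LG_eTreg minus LG_naive had 5. The cause of these shifts, beyond the fewer rows or arrays tested, was not tested.

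Leaving out 1 array at a time, the B cell calls ran from 5 to 9 in LG_eTreg minus LG_naive, 1 to 4 in LG_eTreg minus LG_eTconv and 3 to 4 in LG_eTconv minus LG_naive, and those over all probe sets from 2536 to 3274, 965 to 1549 and 2958 to 4331. Leaving out 1 array, the counts of 12 against Spl_CD4 stayed at 11 in LG_eTreg and LG_eTconv and at 7 in LG_naive, and against Spl_CD8 at 11, 11 and 10 to 11. Where a group was left with 2 arrays, its spread was taken from all gland groups. Deviations of the 9 same-numbered pairs correlated at −0.11 to 0.16, with 3 of 9 over 0.1, and other pairs at −0.17 to 0.17. Between LG_eTreg and LG_eTconv the same-numbered pairs stood at 0.16, 0.06 and 0.12, and other pairs at −0.17 to 0.02. With 3 arrays per group these values cannot tell whether the replicate numbers pair the arrays. With the replicate block 3246, 1327 and 3918 probe sets were called, 8, 3 and 3 of them B cell ones. In that blocked fit Ms4a1 on 1450912_PM_at was called (adjusted p = 0.045), and Ms4a1 on 1423226_PM_at (0.0701), Cd79a (0.0895) and Fcrla on 1419907_PM_s_at in LG_eTconv minus LG_naive (0.0539) were not. Over the alternative settings the called signalling genes ran from 1 to 5 in LG_eTreg minus LG_naive (4 in the fit over all 9 gland arrays) and 1 to 4 in LG_eTconv minus LG_naive (3), the transcription factors from 3 to 6 (5) and 4 to 7 (4), and the receptor complex genes from 3 to 5 (5) and 3 to 4 (3).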
